A study of Rattus norvegicus with 2 samples.

Results

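Sodium pump and potassium channel subunits set the resting potential and the repolarisation of heart muscle cells, and 6 of their genes are described here in the failing heart of hypertensive rats. Atp1b1 encodes the beta-1 subunit of the sodium pump, and Kcne1, Kcnj11, Kcnh2, Kcnd2 and Kcna5 encode potassium channel subunits. The members were every probe set whose platform annotation gave 1 of these symbols, which found 12 of the 8740 probe sets that were not controls and all 6 of the genes. On the array, 4736 genes had a probe set annotated with 1 symbol alone. The rats were 17-week-old males of the Dahl salt-sensitive (DS) strain, in which dietary salt raises blood pressure, and their heart RNA was read on 1-colour oligonucleotide arrays. One array held RNA from the high-salt diet with chronic heart failure, as the labels state it, and 1 array held RNA from the low-salt diet, for which no condition is named. Whether a sample was a single heart or pooled hearts, the chamber and the length of the diets are not stated in the labels.

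The sodium pump exports sodium and imports potassium at the cost of ATP. Its beta subunit is needed for the pump to fold and to reach the cell surface. Potassium channels carry the outward currents that end the cardiac action potential. In rodent ventricle a fast transient outward current, to which Kcnd2 contributes, shapes early repolarisation. Kcnh2 encodes the pore of the rapid delayed rectifier, Kcne1 an accessory subunit of the slow delayed rectifier, Kcna5 the pore of an ultrarapid delayed rectifier, and Kcnj11 the pore of the ATP-sensitive channel, which opens when the cell runs short of ATP.

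Each value below is the deposited intensity of a probe set on 1 array, in linear units. With 1 array per diet there is no replicate spread, so the differences compare these 2 arrays, carry no p-value and have no replicate check. A noise floor of 126.4, the size that 95% of the values below 0 did not exceed, stands in for a detection call. It was reached by 20.0% of probe sets on the high-salt array and 20.3% on the low-salt array. A value under it has no reliable order, and where 1 of the 2 values lay under it a fold is given as a bound against it. The 2% trimmed means were 99.2 on both arrays, and the median log2 ratio of the 1561 probe sets above the floor on both was -0.05, with quartiles of -0.28 and 0.20. The log2 ratio of different probe sets for the same gene varied with an SD of 0.22 (231 genes), a measure of probe error that holds no variation between animals.

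The hearts were read to find genes whose RNA level differed in heart failure. Atp1b1 and Kcnj11 were read above the noise floor on both arrays and were both lower in the high-salt heart. Kcnj11 was 1.62-fold and 1.45-fold lower in its 2 probe sets, and Atp1b1 1.36-fold and 1.21-fold lower in the 2 of its 3 that reached the floor. Kcne1 crossed the noise floor on the high-salt array alone, in 1 of its 2 probe sets. No probe set of Kcnh2, Kcnd2 or Kcna5 reached the floor on either array. Of the 12 probe sets, 4 were above the floor on both arrays, 1 on 1 array and 7 on neither. Of the 5 that could be given a ratio, 0 were at least 2-fold higher and 0 at least 2-fold lower, where 3.53% and 1.69% of the 1955 probe sets with a ratio passed in those directions. The Kcne1 ratio among the 5 is a bound, counted as not passing although its true fold is not known. With so few probe sets, a count of 0 is not set apart from that background. In bulk tissue, fewer cells of a type and less RNA per cell cannot be told apart.

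**Figure D1:**
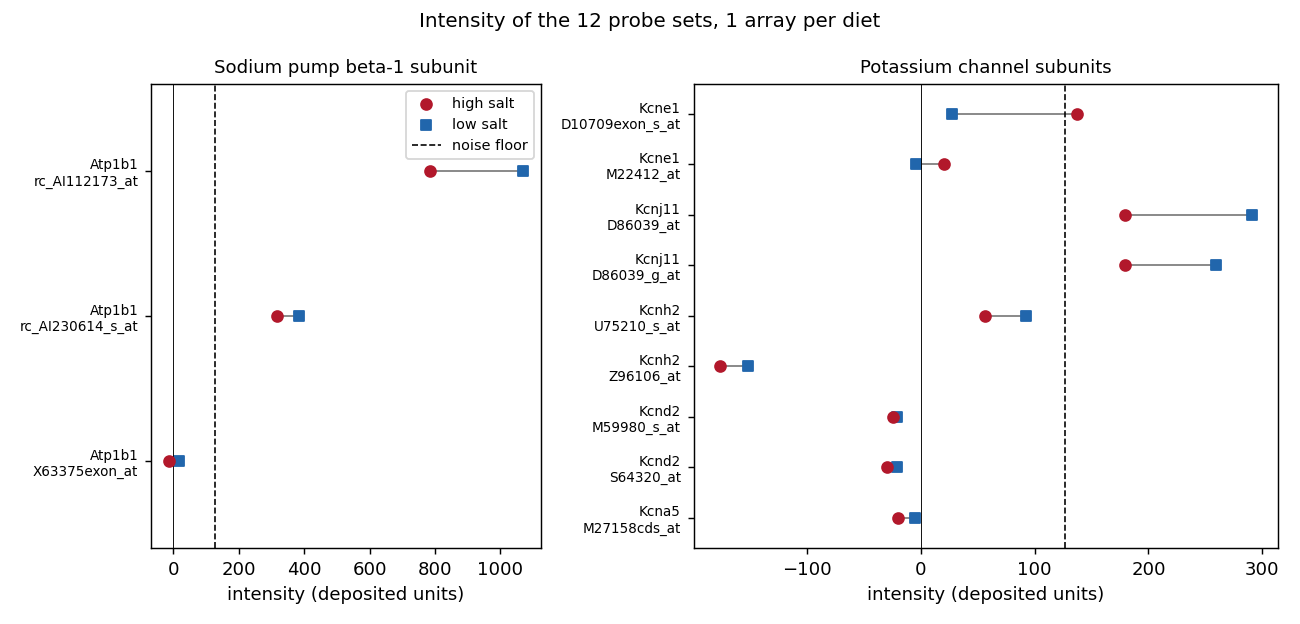
Intensity of each of the 12 probe sets in the high-salt heart (red circles) and the low-salt heart (blue squares), 1 array each, in deposited linear units, with Atp1b1 on its own axis at the left. The dashed line is the noise floor of 126.4; 2 Atp1b1 and both Kcnj11 probe sets lie above it on both arrays with the high-salt reading lower, and Kcne1 crosses it on the high-salt array.

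Of 3 Atp1b1 probe sets, 2 were read above the noise floor on both arrays. The probe set rc_AI112173_at read 785.9 with high salt, against 1070.1 with low salt, a log2 ratio of -0.45. The high-salt reading was 73.4% of the low-salt one. The second, rc_AI230614_s_at, read 317.4 with high salt, against 383.4 with low salt, a log2 ratio of -0.27. Names ending in _s_at mark probe sets that can match more than 1 transcript. The 2 ratios lay 0.17 apart, within the SD among probe sets of a gene. The remaining probe set, X63375exon_at, read -14.3 with high salt, against 16.1 with low salt, and gives no order. Both ordered differences were of a common size on these arrays. Of the 1561 probe sets above the noise floor on both arrays, 209 (13.4%) were lower by at least as much as rc_AI112173_at and 400 (25.6%) by at least as much as rc_AI230614_s_at.

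Other parts of the pump were read through 6 annotated genes for subunits and FXYD regulators. The only catalytic alpha subunit among the 6 was Atp1a4, at -27.7 with high salt, against -38.0 with low salt. The values below therefore do not describe the other alpha subunits of the pump. Of the 6, 2 had a value above the noise floor. Atp1b3, which encodes another beta subunit, read 438.5 with high salt, against 272.1 with low salt, a log2 ratio of 0.69. That is 1.61-fold higher, in the opposite direction to Atp1b1. Fxyd1 encodes phospholemman, the small membrane protein that restrains the cardiac pump until it is phosphorylated. It read 2208.9 with high salt, against 2263.4 with low salt in its brighter probe set, and 1154.4 with high salt against 1075.7 with low salt in the other, log2 ratios of -0.04 and 0.10. Both Fxyd1 ratios were smaller in size than the SD among probe sets of a gene. That SD describes the spread between probe sets and is no test of a difference between the diets. Atp1b2, the beta subunit best known from brain, read at most 37.5 with high salt, against 42.4 with low salt over its 3 probe sets, and Fxyd4 read 99.8 with high salt against 91.9 with low salt. Of the list, 0 of the 2 genes with a ratio were 2-fold higher or lower. Over all 1211 genes with a ratio, 3.55% were at least 2-fold higher and 1.9% at least 2-fold lower.

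Among member probe sets above the floor on both arrays, those of Kcnj11 had the log2 ratios farthest from 0. Its probe set D86039_at read 179.6 with high salt, against 290.8 with low salt, a log2 ratio of -0.70. The related D86039_g_at read 179.4 with high salt, against 259.4 with low salt, a log2 ratio of -0.53. Both are named for the same sequence, so they are not independent measurements of the gene. All 4 readings were above the noise floor, and the high-salt reading was the lower in each probe set. Of the 1561 probe sets above the floor on both arrays, 80 (5.12%) were lower by at least as much as D86039_at and 154 (9.87%) by at least as much as D86039_g_at. A 1.5-fold threshold, which D86039_at alone of the members passed, was passed downward by 9.0% of all probe sets with a ratio.

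The ATP-sensitive channel of heart muscle pairs the Kcnj11 pore with a sulfonylurea receptor encoded by Abcc9. The Abcc9 probe set AF019628_at read 194.2 with high salt, against 286.3 with low salt, 1.47-fold lower with a log2 ratio of -0.56. A second Abcc9 probe set, D83598_at, read 113.3 with high salt against 129.7 with low salt, close to the noise floor, and AF087838_s_at read 10.5 with high salt against -57.5 with low salt, under it. The pore and its receptor were both lower in their brightest probe sets, by less than 2-fold, with 1 Abcc9 probe set above the floor on both arrays. The other genes of this channel family were dim. Kcnj8, which encodes the pore found in vascular smooth muscle, read 42.2 with high salt, against 51.3 with low salt. Abcc8, the receptor of pancreatic beta cells, read 45.5 with high salt, against 48.3 with low salt in its brighter probe set.

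**Figure D2:**
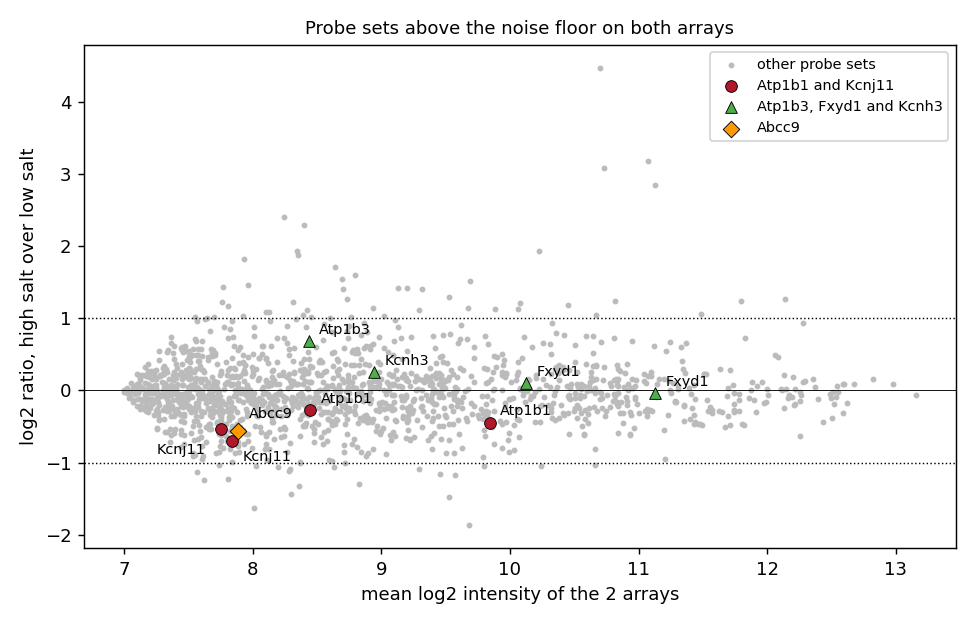
Log2 ratio (high over low salt) against the mean log2 intensity of the 2 arrays for the 1561 probe sets above the noise floor on both. Dotted lines mark 2-fold; the Atp1b1, Kcnj11 and Abcc9 probe sets lie below 0 and Atp1b3 lies above it, all between the dotted lines.

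Kcne1 was the only member with a reading above the noise floor that was higher in the high-salt heart, and its ratio was the least certain. Its probe set D10709exon_s_at read 137.1 with high salt, against 27.5 with low salt. The low-salt reading lay under the noise floor, so the ratio is a bound, at least 1.08-fold higher. Without that floor the ratio depends on how far the dim reading is trusted: with values held only to 10.9, the level under which 40% of all values lay, it was 4.99-fold. At that lower floor 1 of the 8 member probe sets with a ratio was 2-fold higher, where 7.27% of 5707 probe sets were. The other probe set, M22412_at, read 20.7 with high salt, against -4.1 with low salt, under the floor on both arrays. It was higher by 24.8 intensity units, a difference that 1363 (19.5%) of the 6977 probe sets with a mean under the noise floor matched or exceeded in size. Among the same 6977 dim probe sets, 86 (1.23%) differed by at least the 109.6 units of D10709exon_s_at, of which 48 were higher in the high-salt heart. The median size of the difference was 9.2 units and its 95th percentile 57.3. The 6977 were not matched in brightness to any member probe set, so these shares do not say how common a difference is at a member's own intensity. Kcnq1, which encodes the pore that Kcne1 modulates, read -15.4 with high salt, against -9.3 with low salt, under the floor on both arrays.

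Kcnh2, Kcnd2 and Kcna5 gave no ratio. The Kcnh2 probe set U75210_s_at read 56.2 with high salt, against 92.8 with low salt. Its other probe set, Z96106_at, read -176.5 with high salt, against -152.0 with low salt, values further below 0 than the noise floor lies above it. Of the 6977 dim probe sets, 799 (11.5%) differed by at least as much as U75210_s_at. The Kcnd2 probe sets read -24.2 and -30.1 with high salt, against -20.9 and -21.4 with low salt. Kcna5 read -20.1 with high salt, against -4.8 with low salt. The 2 Kcnd2 differences of -3.3 and -8.7 units were smaller than the median size among dim probe sets, and the Kcna5 difference of -15.3 units was matched or exceeded by 32.8% of them. Kcnd2 is a known transcript of rat ventricle, and a reading below 0 here does not show that it was absent. A difference in these 3 genes was not detectable at this signal.

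**Figure D3:**
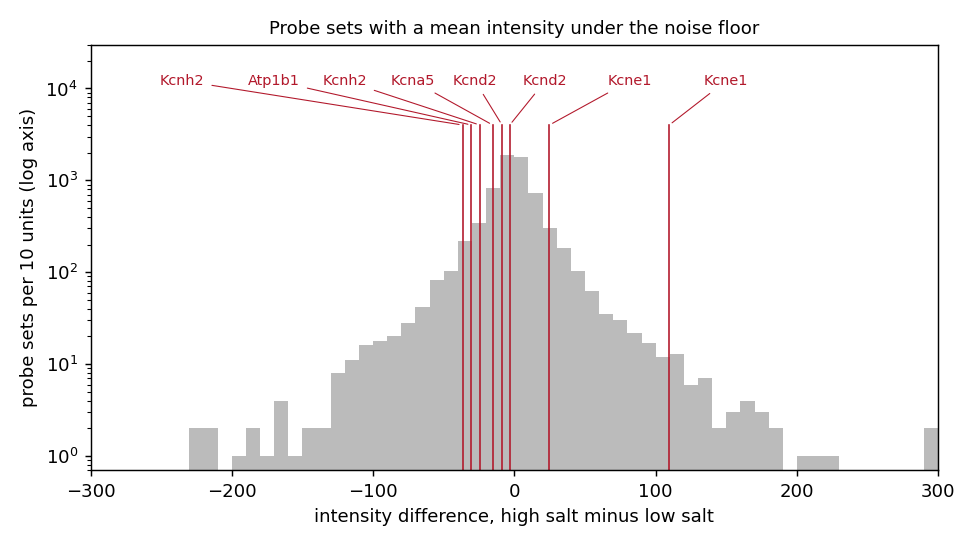
Intensity difference, high salt minus low salt, for the 6977 probe sets with a mean under the noise floor, in bins of 10 units on a log count axis, with 1 probe set outside the axis. Red lines mark the 8 member probe sets that were not above the floor on both arrays; D10709exon_s_at of Kcne1, at 109.6 units, stands in the upper tail, and the other 7 lie between -36.6 and 24.8 units.

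The rest of the potassium channel family was mostly too dim to compare. Of 49 other genes whose symbol starts with Kcn, 48 did not reach the noise floor in their brightest probe set and 14 read below 0 on both arrays. The exception was Kcnh3, which encodes a channel best known from forebrain neurons. It read 535.7 with high salt, against 449.0 with low salt, a log2 ratio of 0.25. Its other probe set, AF073892_s_at, read 31.4 with high salt, against -42.9 with low salt, under the floor on both arrays. All 6 measured neuron and glia markers were under the noise floor, the highest reading being 80.8, and their summed intensity was -33.4 with high salt, against -28.5 with low salt. Second in mean intensity was Kcnmb1, the smooth muscle beta subunit of the large-conductance calcium-activated channel, at 112.6 with high salt, against 118.6 with low salt. Kcnq3 read 87.6 with high salt against 96.9 with low salt and Kcnh4 94.6 with high salt against 66.2 with low salt, both channels best known from neurons. Other cardiac channels were also dim. Kcnj2, a pore of the inward rectifier, read -4.5 with high salt against -4.1 with low salt, and Kcnj12, another, -12.0 with high salt against -3.2 with low salt. Kcnd3, a relative of Kcnd2 in the transient outward current, was under the floor in all 3 of its probe sets. Its highest reading was -30.6 with high salt and 14.8 with low salt, from different probe sets, so these are not a pair.

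Of 12 annotated genes for proteins that anchor or regulate these channels, 7 had a value above the noise floor, 0 were 2-fold higher, 0 were 2-fold lower, and 6 of the 7 had a ratio below 1, as did 660 of all 1211 genes with a ratio. Their median log2 ratio was -0.12, against -0.04 over all 1211 genes with a ratio. Cav1, which encodes the caveolin best known from endothelial and fat cells, had the lowest ratio at 135.5 with high salt, against 254.4 with low salt, 1.88-fold lower. Fhl2, a LIM protein of heart muscle that binds the Kcne1 subunit, read 2409.1 with high salt, against 3308.8 with low salt, a log2 ratio of -0.46. Cav3, the caveolin of muscle, read 403.6 with high salt against 438.9 with low salt in its brightest probe set, and its other 2 probe sets had log2 ratios of 0.33 and 0.09. Actn2, the sarcomeric alpha-actinin, read 1762.7 with high salt against 1852.2 with low salt and Calm2, a calmodulin gene, 452.3 with high salt against 367.6 with low salt.

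Of 48 annotated genes for transporters and channels of other ions, 8 had a value above the noise floor, 5 with a ratio above 1 and 3 below, with a median log2 ratio of 0.03, and 0 passed 2-fold in either direction. Only 4 of the 8 were above it on both arrays, and the ratios of the others are bounds that could lie past 2-fold. Slc8a1, the sodium-calcium exchanger that uses the gradient built by the sodium pump, read 192.9 with high salt, against 186.5 with low salt in its brightest probe set. Cacna1c, the pore of the L-type calcium channel, read 193.2 with high salt, against 190.2 with low salt. The anion exchanger Slc4a3 read 181.2 with high salt, against 266.0 with low salt, 1.47-fold lower. Slc4a2, a related exchanger, read 246.4 with high salt, against 216.0 with low salt. Gja5, a gap junction protein of atria and conduction tissue, read 124.8 with high salt, against 207.4 with low salt, at least 1.64-fold lower in its brightest probe set. Its probe set AF022136_at read 90.8 with high salt against 37.9 with low salt. M76535cds_g_at read -67.5 with high salt against -59.0 with low salt, and both were under the floor on both arrays. Cacna1g, a T-type calcium channel, read 130.2 with high salt against 32.9 with low salt and resembled Kcne1 in crossing the floor on the high-salt array alone.

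**Figure D4:**
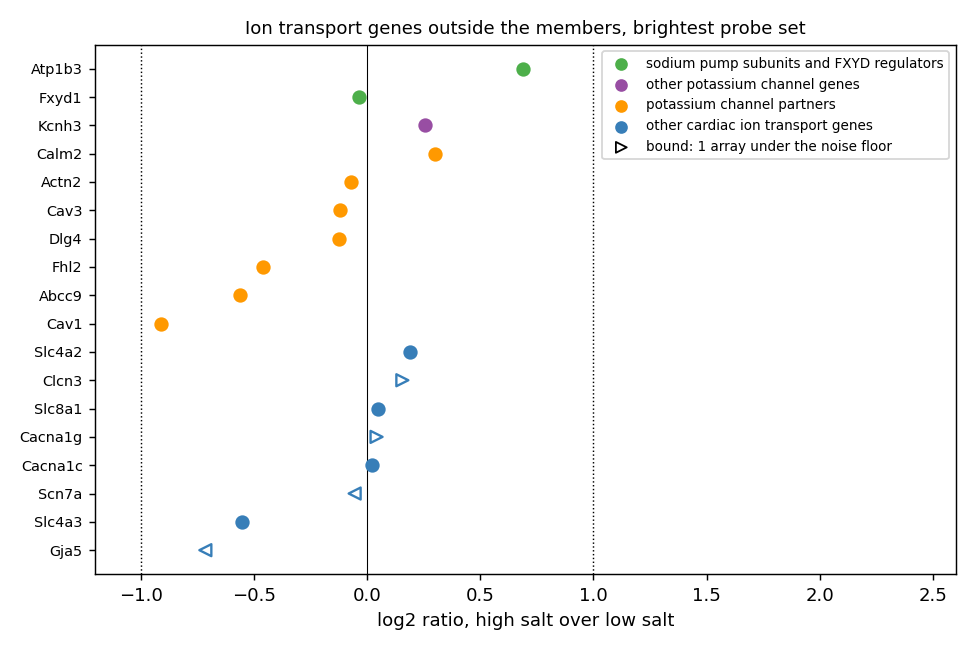
Log2 ratio (high over low salt) for the 18 of 115 annotated ion transport and partner genes outside the members that had a value above the noise floor, from the brightest probe set of each gene. Filled points have both values above the floor and open triangles are bounds, whose true ratio may lie farther out. Every point as drawn lies between the dotted 2-fold lines, from Cav1 at -0.91 to Atp1b3 at 0.69.

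With 1 ratio per gene over 2 arrays, likeness of pattern could be measured only as the distance between the 2 log2 intensities. Nearest to rc_AI112173_at of Atp1b1 were Mtch2 at 780.9 with high salt, against 1103.6 with low salt, then Ndufb6 and Gng5, all within 0.078. Nearest to its rc_AI230614_s_at were Yif1a, Fis1 and Insrr, within 0.059. Nearest to D86039_at of Kcnj11 were Nfkbia, Me1 and Arpc4, within 0.087. Nearest to D86039_g_at were Cyp27a1, Slc4a3 and Trim63, within 0.051. The distance includes the brightness of each probe set, so the neighbours of different probe sets of a gene cannot be compared.

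The tissue label was checked against cell type markers. Of 8 cardiomyocyte markers, 7 were above the noise floor on both arrays and Ryr2 was under it. Their summed intensity was 39214.2 with high salt, against 39799.9 with low salt, with log2 ratios from -0.23 to 0.16 in the brightest probe set of each gene. Over all 12 of their probe sets above the floor on both arrays the range was -0.94 to 0.16, the lowest being a Myh6 probe set, and it takes in both Kcnj11 and both ordered Atp1b1 ratios. For Kcnj11 this rests on that Myh6 probe set alone. The next lowest ratio, also of Myh6, was -0.52, and the brightest Myh6 probe set had -0.10. Of 5 atrial markers 1, Nppa, was above the floor, at 7841.0 with high salt against 353.7 with low salt, and Nppa is also a ventricular gene of heart failure. The other 4, Myl4, Myl7, Kcnj3 and Kcnj5, were under it. All 3 red cell markers, Hbb, Alas2 and Slc4a1, were, by their brightest probe set, at least 2-fold higher with high salt, with a summed intensity of 7944.9 with high salt against 3134.8 with low salt. Another Slc4a1 probe set, J04793_at, read 168.3 with high salt against 174.8 with low salt. Of 4 endothelial markers only Flt1 reached the floor, on the low-salt array, and the summed intensity was 296.7 with high salt, against 262.5 with low salt. The fibroblast sum over 8 markers was 3668.6 with high salt against 3417.5 with low salt. It joins opposite differences: of the 6 with a ratio, Col1a1 and Col1a2 were higher and 4 had a ratio below 1. The median log2 ratio of the 6 was -0.11. The smooth muscle sum over 6 was 460.1 with high salt against 376.0 with low salt, and only Acta2 reached the floor. Acta2 read 378.5 with high salt against 314.6 with low salt. The leukocyte sum over 5 was 1166.3 with high salt against 1442.8 with low salt. That last sum joins opposite differences: Lyz2, lysozyme of macrophages, was 3.52-fold higher at 458.6 with high salt against 130.4 with low salt, and Cd74, a chaperone of class II antigen presentation, 2.26-fold lower at 507.3 with high salt against 1144.4 with low salt. The part of these cell types in the Atp1b1, Kcnj11 and Kcne1 differences was not tested.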

How the data were processed

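Biotin-labelled cRNA was made from heart RNA by in vitro transcription, per the labels' protocols, for 1-colour arrays. The authors deposited linear intensities, 1 for each probe set on each array, some below 0; how they were computed is not given in the sources used here. Their 2% trimmed means differed by 0.072%, so the deposited intensities had been scaled and were used as they stood. Groups came from the source names, 1 array each, and all columns had a sample.

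Gene symbols came from a platform annotation of 2016 (7006 with 1 symbol, 308 with several, 1426 with none; 59 controls were left out). Before the log2 ratio (high over low salt) was taken, values under the noise floor were set to it, and a probe set under it on both arrays got none. Lists used the brightest probe set of each gene. A 2-fold ratio was a call; no p-value was computed. The text names all members, in each ion transport list the genes past 2-fold or otherwise up to 4 of the highest mean intensity, the 3 nearest genes to each bright member probe set, and cell type markers where they bear on a member; Kcnq1, Abcc9, Kcnj8, Abcc8, Kcnj2, Kcnj12, Kcnd3, Cav1, Gja5 and Cacna1g were added for their role or after their values were seen. The members and lists were chosen with earlier results of these data known. Steps were tested on simulated arrays. Alternatives were other floors, scalings and fold thresholds, and per-gene medians. The tools were pandas 2.3.3 and numpy 2.4.6 in Python 3.11.15, with statsmodels 0.14.6 for loess, scipy 1.17.1 and matplotlib 3.10.9.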

Additional observations from a re-analysis of the deposited data

How the results depend on the processing

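The ratios of members above the noise floor on both arrays depended little on scaling. Under quantile normalization, loess and median scaling, the log2 ratio ran from -0.45 to -0.40 for rc_AI112173_at and from -0.29 to -0.22 for rc_AI230614_s_at of Atp1b1. For Kcnj11 it ran from -0.68 to -0.61 for D86039_at and from -0.52 to -0.46 for D86039_g_at. All of these Kcnj11 ratios were smaller in size than the -0.70 and -0.53 of the deposited values. All 28 member ratios under the alternatives kept their sign, and 25 moved by less than the SD among probe sets of a gene. Many of the 28 come from a changed floor, which cannot reverse a sign. A changed floor also leaves a ratio as it was where both readings lie above it, so these counts overstate the stability. The floor mattered where a reading was dim. For D10709exon_s_at of Kcne1 the log2 ratio was 0.12 at the noise floor, 0.69 at the 90th percentile floor and 2.32 at the lower floor of 10.9. At the 99th percentile floor D86039_at was -0.10, since only its low-salt value lay above it, and D86039_g_at and D10709exon_s_at gave no ratio. At the lower floor 1 member probe set of 8 was 2-fold higher, and 415 of all 5707 probe sets were higher and 435 lower; by gene, 7 of 70 pathway genes were higher and 4 lower, against 256 and 249 of all 3445. With the noise floor at the 90th percentile 94 probe sets were higher and 57 lower, and at the 99th 40 were higher and 10 lower. At a 1.5-fold threshold 1 member probe set was lower. Of the 18 pathway genes with a ratio, 1 was higher and 2 lower at 1.5-fold, and no share over all genes was computed at that threshold. Of the 1955 probe sets with a ratio, 171 were higher and 176 lower at 1.5-fold, and 21 were higher and 4 lower at 3-fold. The brightness of the signal over background limits Kcne1, Kcnh2, Kcnd2 and Kcna5. No paired analysis was possible because each diet has 1 array.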
